A study of Mus musculus with 2 samples.

Results

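The Myc-Tag ChIP-seq of a Lck-Dlx5 lymphoma was examined at 10 genes of the E protein network, namely the E proteins Tcf3, Tcf4 and Tcf12, the Id inhibitors Id1, Id2, Id3 and Id4, and the T-cell leukemia genes Tal1, Lyl1 and Lmo2. The members were taken by name from the 21887 protein-coding genes of the RefSeq table for GRCm38, the assembly known as mm10. All 10 were found in the table. A Myc-Tag interval is a region called as bound, and it was assigned to a gene if it shared at least 1 bp with the gene body or its flanks of 10 kb. By this rule 1 of the 10 genes, Tcf12, had a Myc-Tag interval, and the other 9 had none. Among all protein-coding genes, 4168 had an interval by the same rule (19.0%).

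The material was a T-cell lymphoma from Lck-Dlx5 mice, in which the Lck promoter directs a Myc-Tag Dlx5 transgene to thymocytes. The labels give a primary tumor and the strain as C57BL/6 for the Myc-Tag ChIP and C57BL/7 for the input, whereas the methods name a cell line derived from a Lck-Dlx5 lymphoma and an IgG control. Ages and sexes of the animals were not used here. The Myc-Tag library recovers DNA bound by the transgenic Dlx5 protein, and the input library is sonicated chromatin of the same kind of lymphoma, so that both libraries carry the transgene. There was 1 library of each kind, so no difference described here has a replicate check, and no test was computed.

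E proteins are basic helix-loop-helix (bHLH) transcription factors that bind as dimers to the E-box, a short DNA element with the letters CANNTG. Tcf3 encodes the E2A proteins, Tcf12 encodes HEB and Tcf4 encodes E2-2, and in the thymus E2A and HEB are known for guiding T-cell receptor gene rearrangement and the checkpoint of β-selection. Id proteins have the helix-loop-helix domain but lack the basic region, so that they pair with E proteins and keep them from DNA. Tal1 and Lyl1 are bHLH proteins that pair with E proteins, and Lmo2 is a LIM-domain protein that joins such pairs into larger complexes through Ldb1. In human T-ALL the counterparts of these last genes are activated by chromosomal rearrangements.

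The Myc-Tag interval called at Tcf12 lay at the start of the gene. The following bases are shown because they are the part of the Tcf12 promoter window that lies outside the annotated gene and inside the Myc-Tag interval. They are the minus strand of chr9:72111894-72112069 in GRCm38.p6, 176 bases read 5′ to 3′ toward the gene, taken from the RefSeq promoter table. The capitals mark an E-box of the form CAGCTG.
Tcf12 upstream: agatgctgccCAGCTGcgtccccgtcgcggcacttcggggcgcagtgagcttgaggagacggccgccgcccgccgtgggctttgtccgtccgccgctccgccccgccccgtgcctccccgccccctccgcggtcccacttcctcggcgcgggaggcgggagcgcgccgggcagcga
This stretch was rich in G and C (78.4%). The summit, the highest point of the Myc-Tag signal, was placed 27 bp upstream of its first base and 37 bp from the E-box at 72112054 to 72112059. Summit positions were mostly multiples of 16 bp and are not exact to the base.

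Tcf12 spans 71844252 to 72111893 of chromosome 9 and is read toward lower coordinates. Its Myc-Tag interval ran from 72111701 to 72112525 and was 825 bp wide. Of these bases, 193 were inside the gene and the rest were upstream of it. The summit at 72112096 was 203 bp outside the gene end and 277 bp upstream of the nearest annotated start, at 72111819. The interval held that start and the whole of its promoter window. Tcf12 was the only gene of the table that the interval overlapped, so no neighbouring gene shared it.

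The height of the Tcf12 summit was 17. Heights are whole-number scores with no stated normalization, and the read depth behind them is unknown. Of the 3477 Myc-Tag summits, 1179 were taller (33.9%), 239 were equal and 2059 were lower. The Tcf12 summit was thus slightly above the median height of 16, within the interquartile range of 13 to 19. The same held among the 2030 summits within 1 kb of an end of a protein-coding gene, of which 33.3% were taller. The interval was wider than the median of 752 bp, and 39.7% of all Myc-Tag intervals were wider still. It was not called in the input library, which had 28 intervals in all, and the number of intervals at the 10 genes that were called in the input was 0.

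The RefSeq table gives Tcf12 3 annotated starts. The start at 72111201 was 895 bp downstream of the summit and its promoter window, the 250 bases before to 50 bases after the start, was not overlapped by the interval. The start at 71896096, deep inside the gene, was 216 kb downstream of the summit and had no interval. Within the 268 kb of the gene body, the interval at the upstream end was the only Myc-Tag interval called. Another Myc-Tag interval lay upstream of Tcf12, from 72132843 to 72133496, with its summit 21243 bp outside the gene and a height of 12. It overlapped no gene of the table, and the protein-coding gene nearest to it was Tcf12. At this height 81.4% of Myc-Tag summits were taller. The interval lay 10949 bp beyond the 10 kb flank and was not counted at Tcf12.

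**Figure D1:**
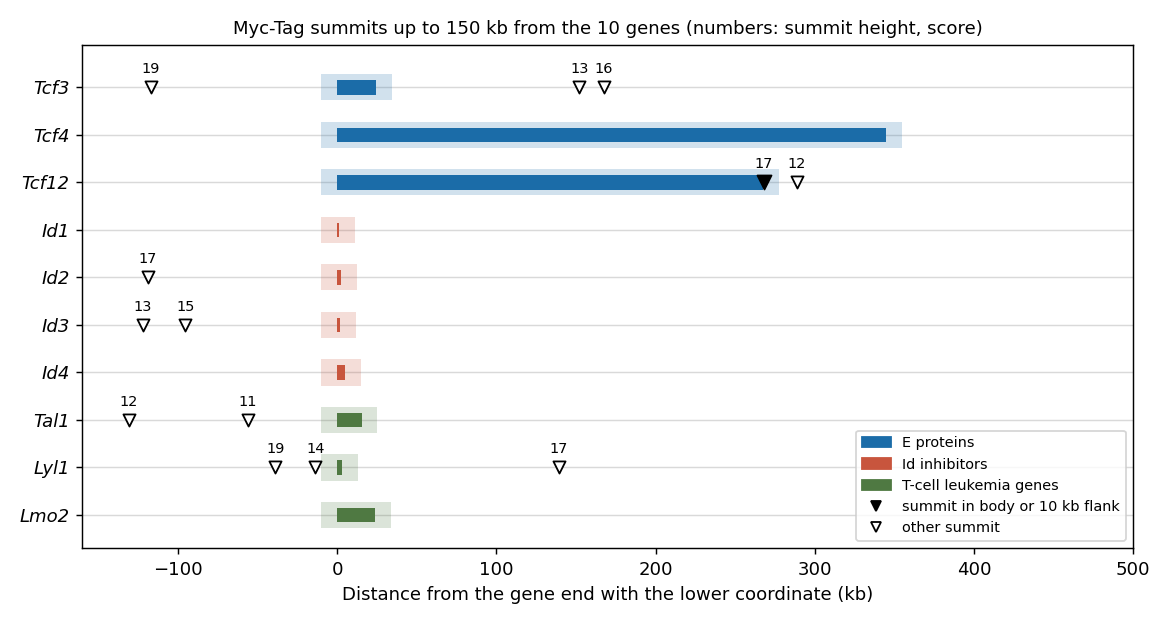
Myc-Tag summits up to 150 kb from each gene, plotted as distance in kb from the lower-coordinate end of the gene (dark bars, gene bodies; pale bars, bodies with 10 kb on either side; numbers, summit height as a score). The summit of height 17 at the upstream end of Tcf12 is the single one inside a pale bar, and Tcf4, Id1, Id4 and Lmo2 have no summit in the range shown.

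The other 2 E protein genes had no Myc-Tag interval. Tcf3, on chromosome 10 from 80409541 to 80433976, had its nearest summit 117 kb away, 15 bp from an end of the ribosomal protein gene Rps15, with a height of 19. Up to 150 kb from Tcf3 there were also summits of height 13 in Rexo1 and 16 at Klf16. Tcf4, on chromosome 18 from 69343429 to 69687967, was the longest of the members with 345 kb. The nearest summit to Tcf4, with a height of 12, was 842 kb away in Poli, which encodes a DNA polymerase. Tcf4 was the member with the most isolated position, as 81.9% of all protein-coding genes had a summit nearer to them. Within 500 kb of the gene bodies there were 0 summits at Tcf4, 11 at Tcf3 and 4 at Tcf12. In this library there was a summit at the start of Tcf12 and no call in or near the gene for E2A or for E2-2. Among protein-coding genes with bodies of 10 to 100 kb, as for Tcf3, 22.2% had an interval in the body or within 10 kb. The share was 19.8% for bodies over 100 kb, as for Tcf4 and Tcf12. The calls at 3 genes are too few to be set apart from these shares, and a difference between the genes was not tested.

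None of the 4 Id genes had a Myc-Tag interval, and their nearest summits were between 95.4 and 278 kb away. Id3, on chromosome 4 from 136143822 to 136145392, is a gene induced by T-cell receptor signals in thymocytes. Its nearest summit, 95.4 kb away and of height 15, lay 906 bp outside the ribosomal protein gene Rpl11. Id2, on chromosome 12 from 25093799 to 25096092, had its nearest summit 119 kb away, in Kidins220, with a height of 17. Id4, on chromosome 13 from 48261116 to 48266028, had its nearest summit 248 kb away at Zfp169, with a height of 15. Id1, on chromosome 2 from 152736251 to 152737410, had its nearest summit 278 kb away in Pdrg1, with a height of 12. All 4 of these summits were within 1 kb of an end of another protein-coding gene, at distances from 43 to 906 bp. Such a position was common in this library, as 2030 of all 3477 Myc-Tag summits (58.4%) lay within 1 kb of an end of a protein-coding gene.

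The T-cell leukemia genes Tal1, Lyl1 and Lmo2 also had no Myc-Tag interval by the 10 kb rule, but Lyl1 was close to it. Lyl1 spans 84701423 to 84704716 of chromosome 8. Its nearest interval, at 84687695 to 84688171 and with a summit height of 14, ended 13252 bp before Lyl1 and 3251 bp short of the 10 kb flank. It overlapped Nacc1 and Trmt1, and its summit was 22 bp from an end of Nacc1, a gene for a transcriptional regulator of the BTB family. A taller summit of 19 was 38767 bp from Lyl1 at the immediate early gene Ier2. The interval at Nacc1 was narrow at 477 bp, and 92.2% of Myc-Tag intervals were wider.

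Tal1 spans 115056426 to 115071755 of chromosome 4, and its nearest Myc-Tag summit was 56.2 kb away. The interval ran from 114999476 to 115000283 over an end of Stil, and its summit was 84 bp inside Stil with a height of 11. Stil is the neighbour whose human counterpart is joined to TAL1 by an interstitial deletion in some T-ALL. The summit was among the lower ones of the library, as 90.5% were taller. Lmo2, on chromosome 2 from 103957903 to 103981878, had its nearest summit 160 kb away and 75 bp from an end of Caprin1, with a height of 19. There were 8 summits within 500 kb of Lmo2 but 0 within 100 kb.

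**Figure D2:**
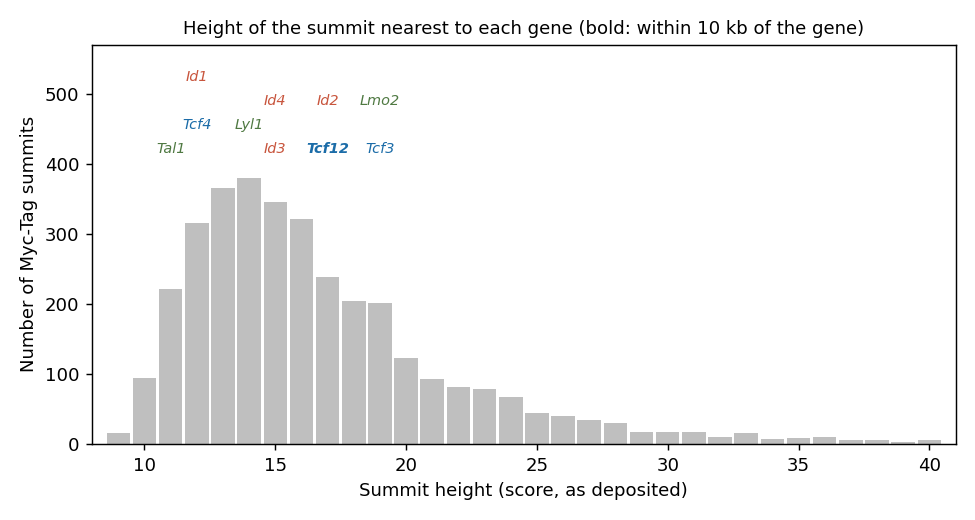
Distribution of the heights of Myc-Tag summits (x axis, score as deposited; y axis, number of summits; the 53 summits taller than 40 are not drawn), with each gene written above the height of the summit nearest to it. The Tcf12 summit (bold, 17) lies in the body of the distribution, and the nearest summits of the other 9 genes range from 11 at Tal1 to 19 at Tcf3 and Lmo2.

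The 3 groups of genes offered unequal room for an interval. The gene bodies with their flanks covered 697 kb for the E proteins, 89.9 kb for the Id genes and 103 kb for the T-cell leukemia genes. Across the bodies and flanks of all protein-coding genes, counted once where they overlap, there were 0.242 Myc-Tag intervals per 100 kb. At that density the E protein regions would hold 1.68 intervals, the Id regions 0.22 and the T-cell leukemia gene regions 0.25, against 1, 0 and 0 called. For all 10 genes together, the density gives 2.15 intervals and 1 was called. The density treats all bases alike, although 58.4% of summits lay within 1 kb of an end of a protein-coding gene. These expected counts are therefore rough, above all for long genes. Of protein-coding genes with bodies under 10 kb, as for Lyl1 and the 4 Id genes, 14.2% had an interval. The share was 22.2% for bodies of 10 to 100 kb, as for Tcf3, Tal1 and Lmo2, and 19.8% for bodies over 100 kb, as for Tcf4 and Tcf12. A count of 1 among 10 genes is too small to be set apart from the background of 19.0%, and a difference between the 3 groups was not tested. The median distance from gene to nearest summit was 118 kb for the 10 genes and 134 kb for all protein-coding genes. For the 9 genes without a call, weaker binding would not have been detectable in these peak lists.

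RefSeq promoter windows of 300 bases were at hand for 7 of the 10 genes, with 10 windows in all. The table held none for Tcf4, Id1 and Lmo2. The windows were searched on both strands for TAATT, the binding motif of the Dlx family named by the study, and for the E-box CANNTG. The paper reports TAATT for the majority of its Dlx5 binding sites, from a motif search, whereas these windows are fixed stretches at gene starts. The pattern TAATT was found in 1 of the 10 windows, against 27.0% of all 32851 windows. It was at the Tal1 start that lies inside the gene, at 115057811, and the bases around it are shown because they are the only match among the members and lay 57452 bp from the nearest summit. They are the plus strand of chr4:115057632-115057660 in GRCm38.p6, with the match, TAATT on the opposite strand, in capitals.
Tal1 internal start: cattttattccaAATTAtgatgtattcgg
The Tcf12 window at the interval had no match to TAATT. That window covers 300 bases of the 825 bp interval, and the summit lies 27 bp outside it. The rest of the Tcf12 interval was not searched. Of the 2383 promoter windows overlapped by a Myc-Tag interval, 14.1% held TAATT, against 28.0% of the other windows. An overlap of 1 bp was enough, so these shares do not describe the sequences of the intervals and cannot be set beside the paper's motif result. The base composition of these windows differed in the same comparison, with a median G and C content of 63.3% in windows overlapped by an interval and 52.0% in the others. The Tcf12 window had 71.7%. The median was 62.5% in the 10 windows of the members, of which 3 belong to Tcf12, and 52.7% in all windows. The part of base composition in the motif shares was not tested.

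The E-box CANNTG was found in 7 of the 10 windows of the members and in 72.3% of all windows. The form CAGCTG, which is contained in the count of CANNTG, was found in 2 of the 10, at Tcf12 and at Id2, and in 16.3% of all windows. Of the windows overlapped by a Myc-Tag interval 12% held CAGCTG, as the Tcf12 window did. The Id2 window held it without an interval being called. A match to these letters is a description of the window and not of binding.

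Genes that work with the 10 members were counted by the same rule, and 19.0% of all protein-coding genes is again the background. Of 15 genes for Ldb complexes and their partners, 6 had a Myc-Tag interval. These were the Ssbp2, Ssbp3 and Ssbp4 genes, which encode single-stranded DNA binding proteins that bind Ldb1, the corepressor gene Cbfa2t3, and the T-cell transcription factor genes Gata3 and Runx1. Ssbp2 had intervals with heights of 20 and 15 near its lower end, and Ssbp3 had a pair of height 18, of which 1 was 1262 bp outside the gene. At Ssbp4 the heights were 13 and 16. Cbfa2t3 had a summit of 14 inside the gene and Runx1 a summit of 13, 97350 bp from the nearer gene end. The Gata3 summit of 14 was 1519 bp outside the gene, in the noncoding RNA gene 9230102O04Rik. Ldb1 itself, Lmo1, Lmo3 and Lmo4 had no interval. The median gene body in this list was 74.2 kb, and none was under 10 kb. Of all protein-coding genes, 22.2% with bodies of 10 to 100 kb and 19.8% with bodies over 100 kb had an interval. The genes are a chosen list in 1 library, and a difference from these shares was not tested. By the narrower rule of a summit within 1 kb of either gene end, 2 of the 15 genes were counted, Ssbp2 and Ssbp4, against 10.8% of all protein-coding genes.

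Of 10 thymocyte genes known to respond to E proteins, 4 had a Myc-Tag interval in the body or within 10 kb. Foxo1, a forkhead factor that supports Il7r and Rag expression, had a summit of 22 located 5713 bp outside its lower-coordinate end. A summit of 12 lay inside Foxo1, 143 bp from the same end. At Rag2, which encodes a subunit of the recombinase of T-cell receptor genes, the summit of 11 was 72 bp outside the gene, and the interval overlapped Rag2 and Iftap. The interval counted at Ptcra, the pre-T-cell receptor α gene, had a height of 18 but overlapped Cnpy3. The interval counted at Cd4 had a height of 10 and overlapped P3h3. By the rule of a summit within 1 kb of an end of the gene itself, 2 of the 10 genes were counted, Foxo1 and Rag2. The background of that rule is again 10.8%. A difference from this share, or from the 19.0% of the wider rule, was not tested.

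Of 11 genes of the Hes, Hey and Bhlhe40 family, bHLH repressors that include targets of Notch, 3 had a Myc-Tag interval. The summits were inside Hes1 and Hes6, both with a height of 14, and inside Hes7 with a height of 15. By the 1 kb rule 1 of the 11 genes, Hes1, was counted, against 10.8% of all protein-coding genes. Of the 11 genes, 9 had a body under 10 kb, a class with an interval at 14.2% of genes by the wider rule. Differences from these shares were not tested. None of 30 tissue-specific bHLH genes such as Myod1, Neurog1, Twist1 and Tal2 had an interval. The genes are a chosen list in 1 library and not replicates, so no limit on a share was drawn from this count. Of the 30 genes, 28 had a body under 10 kb, the class in which 14.2% of all protein-coding genes had an interval. A difference from that class was not tested. None of the intervals named in these lists was called in the input.

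**Figure D3:**
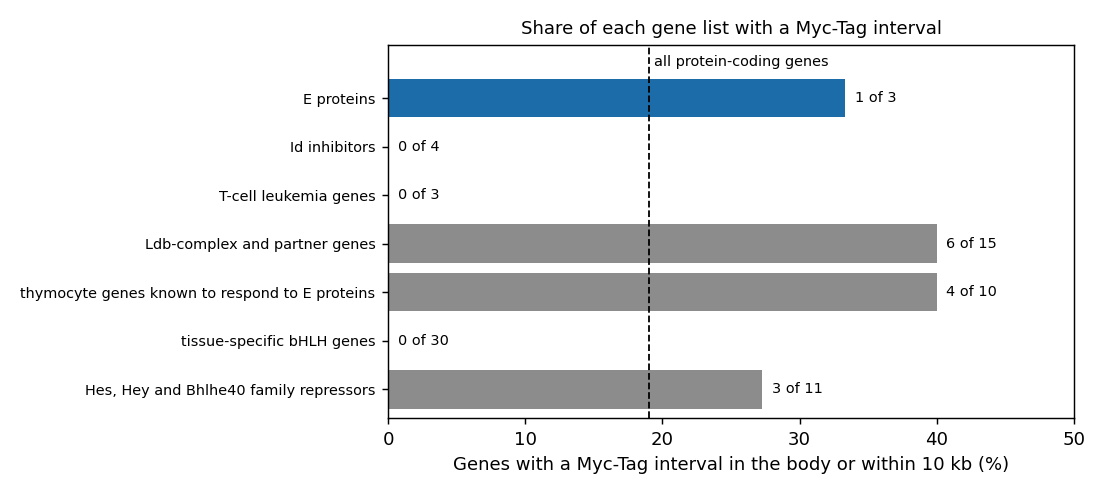
Percent of genes with a Myc-Tag interval in the body or within 10 kb (x axis) for the 3 groups of members (colored bars) and 4 lists of related genes (grey bars), with counts beside the bars and the 19.0% of all protein-coding genes as a dashed line. Bars rest on 3 to 30 genes of 1 library, and no test was computed.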

How the data were processed

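The data were 1 Myc-Tag ChIP library and 1 input library of a Lck-Dlx5 lymphoma, deposited as 5 browser tracks. Sequencing (Illumina GA II) and its analysis were contracted to Active Motif, and the peak caller was MACS, with regions selected on its p-value. The MACS version, threshold and control used for calling are not given in the sources used here. The authors deposited the height of each summit as a score without a stated normalization, so the depth is unknown. The submitters' processing notes name BWA and build mm9. The coordinates were read as mm10, because 58.4% of summits (47.0 to 70.7% by autosome) lay within 1 kb of an end of a protein-coding gene of GRCm38.p6, and because an interval on chromosome Y reaches 90813302, beyond the end of that chromosome in mm9.

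Of the 3477 summits, 3329 lay on a multiple of 16 bp. Summits were matched to intervals by position. Interval starts were counted from 1. Genes and promoter windows came from RefSeq tables. Exons, introns and UTRs were not used here, and the promoter table held no windows on chromosome 18. The nearest protein-coding gene was the one with the end nearest to a summit. The genes named are the 10 members, the genes overlapped by or nearest to their intervals or nearest summits, and, from 4 lists, those with an interval and a few without. Summits up to 150 kb from a gene are shown, a distance chosen after the data were seen. The members and lists were chosen with earlier results of these data known. Counts were computed with Python 3.11.15, numpy 2.4.6 and pandas 2.3.3, with scipy 1.17.1 for the Wilson interval and matplotlib 3.10.9 for plots, and were tested on simulated intervals. No test between conditions was computed, since each group has 1 library. Alternatives changed the flank, height threshold, overlap, merging and use of input calls.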

Additional observations from a re-analysis of the deposited data

How the results depend on the processing

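Over 10 alternative settings, 60 values were recomputed. Of these, 47 stayed within 1.5 times the count reported, or inside the 95% Wilson interval of the background share (18.5 to 19.6%), and 13 moved beyond that. The use of merged intervals, and of intervals not called in the input, for counts of genes was chosen after seeing the data. Tcf12 kept its interval under 9 of the settings. With heights at or above the 75th percentile, 19, the E proteins with an interval, the members with an interval and the intervals at the members each fell to 0, since the Tcf12 summit has a height of 17, and the background share was 6.05%. With heights at or above the median the background was 10.7% and 1 member was left. With 50 kb on either side, 2 members (Tcf12 and Lyl1, so that 1 T-cell leukemia gene was counted) had 4 intervals, against a background of 33.3%. The Id genes had 0 intervals under every setting run. With 1 kb and 5 kb on either side, the gene body alone, and summits within 1 kb of a gene end, the count of members stayed at 1 while the background was 14.2%, 16.6%, 13.4% and 10.8%. These changes follow from the construction of the settings. No paired analysis was possible because there was a single library of each kind, and leaving out a replicate was likewise not possible. Read depth limits every result on absence.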
